A study of Homo sapiens with 6 samples.

Results

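Divergent transcripts are long noncoding RNAs that start near the promoter of a named gene and run away from it on the opposite strand, and human gene nomenclature marks them with the suffix -DT after the name of the neighbouring gene. The 137 divergent transcripts described here were chosen by symbol and by measured level: all genes of the count table whose symbol ends in -DT and whose mean CPM (the count scaled to its column sum) over the 6 libraries was at least 1. The difference between the groups was not part of that rule, but its mean took in both groups. A transcript could therefore pass it mainly through the group where its level was higher. The table held 590 genes with such a symbol among 62700 genes, and 453 lay below the level rule. The libraries came from KYSE510 cells, a line established from a squamous carcinoma of the oesophagus and kept in serum-containing medium. The tested cells carried an shRNA that the labels name shRNH1 (genotype RNH1 knockdown, 3 libraries), made as a model of induced R-loops, and the control cells carried shControl (genotype WT, 3 libraries). The number of shRNAs, clones or separate infections behind each group is not stated in the labels, and p-values therefore cover only the spread among these 6 libraries. Poly(A) RNA was sequenced, and library totals ran from 31394687 to 33421217 counts in shRNH1 and from 40225486 to 41103220 counts in shControl.

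Most active human promoters fire in both directions, and the RNA made in the upstream direction is usually short, ends at early poly(A) sites and is degraded by the nuclear exosome with its targeting complexes. Divergent transcripts with a -DT name are the part of this output that is stable enough to be annotated, often spliced and polyadenylated. RNase H1 cuts the RNA strand of RNA:DNA hybrids, and R-loops, in which nascent RNA pairs with its template and leaves the other DNA strand single, are common at CpG-rich promoters of this kind. Reads in this assay report polyadenylated RNA, not hybrids or transcription itself.

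The promoter windows of the transcripts on which the results turn are printed here because they show how closely each transcript and its partner gene are placed. Sequences are the RefSeq windows from 250 bases before to 50 bases after the start (GRCh38.p14), 5′ to 3′ on the strand of the transcript. Capitals mark matches, on either strand, to GGGCGG (GC box), CCAAT and CACGTG (E-box). They also mark matches to TGACGTCA (the CRE), AAGATGGC (the YY1 motif) and the NRF1 motif, which has 1 free base. CCGGAAG (the ETS motif), TATAAA and TGANTCA (the AP-1 motif) were searched as well. None of these letter strings contains another, and neighbouring matches can share end bases. RNASEH1-DT lies at chr2:3558136-3558435 on the + strand, OSER1-DT at chr20:44210710-44211009 on the + strand, ZFAND2A-DT at chr7:1160124-1160423 on the + strand, BAIAP2-DT at chr17:81034670-81034969 on the - strand and SUV39H2-DT at chr10:14878610-14878909 on the - strand.
RNASEH1-DT: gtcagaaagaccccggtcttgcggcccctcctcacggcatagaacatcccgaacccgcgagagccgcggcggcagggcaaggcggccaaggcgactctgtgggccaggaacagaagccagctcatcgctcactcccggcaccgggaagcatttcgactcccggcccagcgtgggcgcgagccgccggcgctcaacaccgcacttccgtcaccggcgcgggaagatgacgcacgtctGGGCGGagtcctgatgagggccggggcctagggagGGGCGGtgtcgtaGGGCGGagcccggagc
OSER1-DT: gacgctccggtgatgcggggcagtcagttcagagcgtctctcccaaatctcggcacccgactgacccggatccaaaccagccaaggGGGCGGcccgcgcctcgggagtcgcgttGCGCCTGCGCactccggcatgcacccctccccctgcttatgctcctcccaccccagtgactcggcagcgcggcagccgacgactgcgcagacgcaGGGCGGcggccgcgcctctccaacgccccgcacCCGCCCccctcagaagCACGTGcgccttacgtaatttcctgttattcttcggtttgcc
ZFAND2A-DT: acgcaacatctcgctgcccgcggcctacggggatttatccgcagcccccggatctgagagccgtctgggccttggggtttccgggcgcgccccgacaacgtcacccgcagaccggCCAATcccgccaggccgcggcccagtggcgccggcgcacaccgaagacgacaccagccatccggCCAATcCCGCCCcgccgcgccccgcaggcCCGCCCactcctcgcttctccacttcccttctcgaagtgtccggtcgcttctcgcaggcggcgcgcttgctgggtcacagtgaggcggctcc
BAIAP2-DT: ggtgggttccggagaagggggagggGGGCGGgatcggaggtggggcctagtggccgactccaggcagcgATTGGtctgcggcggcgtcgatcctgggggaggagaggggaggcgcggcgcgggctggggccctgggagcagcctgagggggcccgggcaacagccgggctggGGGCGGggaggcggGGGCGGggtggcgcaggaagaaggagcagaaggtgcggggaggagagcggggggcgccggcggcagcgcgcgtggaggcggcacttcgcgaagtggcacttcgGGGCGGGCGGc
SUV39H2-DT: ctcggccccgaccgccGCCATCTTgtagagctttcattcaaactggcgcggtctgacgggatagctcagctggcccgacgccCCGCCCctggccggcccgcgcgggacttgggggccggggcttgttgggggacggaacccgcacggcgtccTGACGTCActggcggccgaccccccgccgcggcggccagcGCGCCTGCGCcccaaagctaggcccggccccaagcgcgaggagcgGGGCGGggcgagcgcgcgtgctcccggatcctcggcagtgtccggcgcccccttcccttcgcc

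In RefSeq the start of RNASEH1-DT was 53 bases from that of RNASEH1, and the windows of the pair shared 152 bases. The distances were 189 bases for OSER1-DT, 178 for ZFAND2A-DT, 207 for SUV39H2-DT and 432 for BAIAP2-DT. Promoter windows were found for 106 of the 137 transcripts. For 99 of them the partner also had a window and lay on the opposite strand, 69 of these had starts 1 to 250 bases apart, and in 84 pairs the windows shared bases. The windows were rich in CpG. Their median CpG observed-over-expected ratio was 0.898 and their median GC content 69.2%, against 0.557 and 58.0% over 27305 RefSeq windows of all genes. That background took no account of expression in these cells, and expressed genes alone were not compared. A GC box was found in 74.5% of the divergent transcripts' windows and in 43.8% of all windows, the NRF1 motif in 18.9% and 6.05%, the ETS motif in 22.6% and 10.6%, CCAAT in 31.1% and 35.6%, and TATAAA in 4.72% and 12.1%. Among the 18 windows of transcripts that rose in shRNH1, 72.2% had a GC box. These are matches of letters, and no binding was measured.

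The knockdown was checked first, because RNASEH1 is itself the partner of a divergent transcript. RNASEH1, which encodes RNase H1, had 7.39, 7.03 and 7.02 TMM-normalised CPM in the shRNH1 libraries, against 34.8, 32.5 and 27.5 CPM in the shControl libraries. The groups did not overlap, and RNASEH1 fell by 2.14 ± 0.12 (SE) on the log2 scale, to 22.6% of shControl (adjusted p 1.608e-13, edgeR quasi-likelihood test with Benjamini-Hochberg adjustment over 19682 genes, as for every single-gene p here). By an exact permutation test on CPM, two-sided, p was 0.1, the smallest that 3 against 3 libraries allow. RNH1, the symbol in the labels, encodes the cytosolic ribonuclease inhibitor and had 440.7, 527.9 and 462.6 CPM in shRNH1 and 515.4, 466.2 and 653.8 CPM in shControl, with overlapping groups (log2 fold change -0.19 ± 0.11, adjusted p 0.221).

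RNASEH1-DT had 6.01, 4.61 and 4.75 CPM in shRNH1, against 4.82, 6.11 and 4.85 CPM in shControl. The groups overlapped, and no difference past the threshold of 0.05 was found (log2 fold change -0.04 ± 0.16, adjusted p 0.888). Its sign changed under several settings, to 0.06 when only library size was used for scaling and to 0.07 without shControl replicate 2. Because RNASEH1 is the gene that the knockdown lowers and RNASEH1-DT did not pass the threshold, their ratio restates the knockdown: the log2 ratio of RNASEH1-DT over RNASEH1 was higher in shRNH1 by 2.03 ± 0.17 (adjusted p 3.554e-06, limma over all 2415 pairs described further on). Per length, RNASEH1-DT stood at 124.8% of the RNASEH1 level in shRNH1 and at 28.98% in shControl. In GENCODE 29 the exons of the pair overlap over 125 bases, 10.3% of the exons of RNASEH1-DT, and strand use in counting is not stated, so reads from that stretch could not be assigned to either gene.

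**Figure D1:**
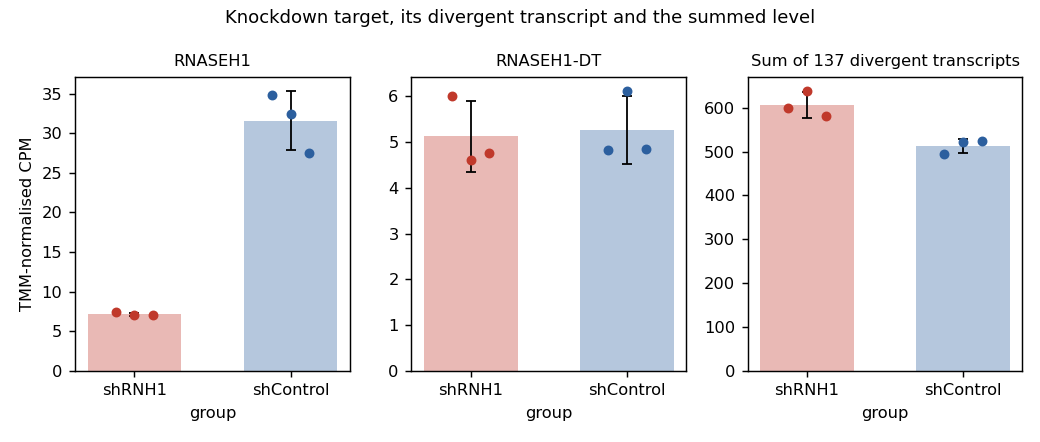
TMM-normalised CPM in each library (points), with the mean (bar) and SD (error bar, n = 3), for shRNH1 and shControl, shown for RNASEH1, for RNASEH1-DT and for the sum of the 137 divergent transcripts. RNASEH1 lies at 7.02 to 7.39 CPM in shRNH1 and at 27.5 to 34.8 CPM in shControl, RNASEH1-DT overlaps between the groups, and the sum lies at 580.3 to 638.1 CPM in shRNH1 and at 494.4 to 523.3 CPM in shControl.

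As a group, the divergent transcripts had a higher summed level in shRNH1 than in shControl, 22 of them rose past the threshold and 2 fell. Their summed level was 598.9, 638.1 and 580.3 CPM in the shRNH1 libraries, against 494.4, 521.0 and 523.3 CPM in the shControl libraries. The groups did not overlap in the sum. In bulk RNA, more cells with a transcript and more transcript per cell cannot be told apart. The log2 fold changes of the 137 transcripts had a median of 0.20 and ran from -0.97 to 1.46. Over all 19682 tested genes the median was 0.02. A log2 fold change above 0 was found for 104 of the 137 transcripts (75.9%), against 51.7% of all tested genes, and one below 0 for 33.

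All 137 transcripts passed the filter on low counts, and 22 of them (16.1%) rose with an adjusted p under 0.05, against a background of 15.3% of all tested genes. Only 2 (1.46%) fell, against 12.3% of all tested genes. The share that rose was near the background. The remaining 113 did not pass the threshold, and 40 transcripts had an unadjusted p under 0.05. In 41 transcripts (29.9%) every shRNH1 library lay above every shControl library, against 21.4% of all tested genes, and in 4 every shRNH1 library lay below, against 18.6%. Of the 24 that changed, 6 had a fold of at least 2. Leaving out shRNH1 replicate 1 or shControl replicate 1 left 13 transcripts called higher. The number called lower was 1 without shRNH1 replicate 1, shRNH1 replicate 3 or shControl replicate 1, and 5 without shRNH1 replicate 2.

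**Figure D2:**
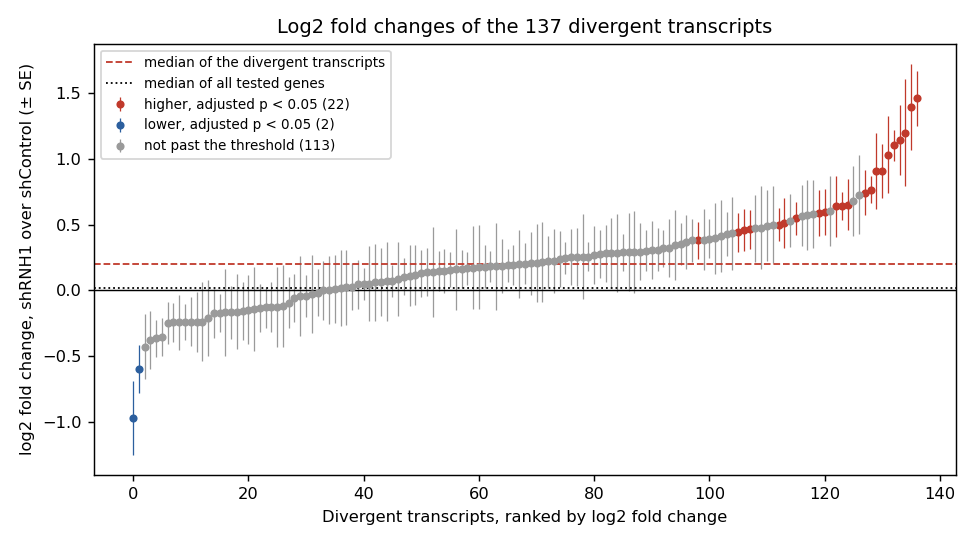
Log2 fold change (shRNH1 over shControl) with its SE for each of the 137 divergent transcripts, in rank order; red points rose and blue points fell at an adjusted p under 0.05. The dashed line at 0.20 is their median and the dotted line at 0.02 the median of all tested genes, and 104 points lie above 0.

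Other genes of similar level also had a median above 0, but a lower one. Divergent transcripts are weakly expressed, with mean CPM from 1.01 to 30.2, a median of 2.67 and 12 transcripts at 10 CPM or more. Over the 8799 tested genes within this range of level, the median log2 fold change was 0.07, 20.9% rose and 9.85% fell. When all tested genes were ranked by level and split into 5 equal bands, 70 divergent transcripts lay in the second band (mean CPM 0.642 to 2.89), where 7 of them rose and 1 fell, against 14.3% and 5.11% of all genes of the band. A further 62 lay in the third band (2.74 to 15.1 CPM), where 13 rose and 1 fell, against 23.9% and 9.63%. The median log2 fold changes were 0.21 and 0.19 for the divergent transcripts of these bands and 0.07 and 0.11 for all their genes. Among antisense RNAs with an -AS name at a mean of at least 1 CPM, 74 of 428 rose (17.3%), 28 fell (6.54%) and the median was 0.07. Among intergenic RNAs with a LINC name, 40 of 164 rose (24.4%), 30 fell (18.3%) and the median was 0.14. When the trend of the fold changes on expression level was removed by an offset, 13 divergent transcripts were called higher, all of them among the 22, and 4 lower, and their median was 0.10. With library size as the only scaling, the median of all genes was 0.13, and 73.9% of all calls were rises in place of 55.4%; the divergent transcripts then had a median of 0.32, with 33 called higher and 1 lower.

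Of the 137, 125 reached 1 TMM-normalised CPM on average in both groups. A further 9 reached it in shRNH1 alone, 4 of which were among those that rose (RNF32-DT, KIF26A-DT, PRR15-DT and JARID2-DT). Another 3 reached it in shControl alone, 1 of which was among those that fell (SUV39H2-DT). These transcripts entered the list through the group where they were higher. Just inside the rule lay RPAP3-DT, DUSP5-DT and KIF26A-DT, with mean CPM of 1.01, 1.01 and 1.02 and log2 fold changes of -0.12, 0.14 and 1.20. Just outside it lay TMEM14B-DT, IBA57-DT and RAB17-DT, with mean CPM of 0.998, 0.988 and 0.963 and log2 fold changes of 0.07, 0.38 and -0.34.

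The smallest adjusted p-values belonged to ZFAND2A-DT, ZNF584-DT and OSER1-DT. ZFAND2A-DT had 14.7, 16.1 and 14.8 CPM in shRNH1, against 6.85, 7.51 and 6.86 CPM in shControl. It rose 2.15-fold (log2 fold change 1.10 ± 0.12, adjusted p 5.983e-08), the smallest p among the 137. Its partner ZFAND2A encodes an arsenite- and heat-inducible protein that works with the proteasome, and stood at 16.6, 14.1 and 14.4 CPM in shRNH1 and 13.4, 13.1 and 12.1 CPM in shControl, without passing the threshold (log2 fold change 0.22 ± 0.11, adjusted p 0.159). OSER1-DT had the largest rise. It had 3.83, 4.81 and 4.12 CPM in shRNH1, against 1.87, 1.55 and 1.19 CPM in shControl, a 2.76-fold difference (log2 fold change 1.46 ± 0.21, adjusted p 6.039e-06). OSER1, named for its response to oxidative stress, had 32.1, 27.9 and 31.6 CPM in shRNH1 and 25.8, 27.4 and 30.0 CPM in shControl, and the groups overlapped (log2 fold change 0.14 ± 0.10, adjusted p 0.339). ZNF584-DT, which accompanies a KRAB zinc finger gene of chromosome 19, had 32.6, 35.9 and 29.7 CPM in shRNH1, against 20.2, 18.6 and 19.0 CPM in shControl. It rose 1.70-fold (log2 fold change 0.77 ± 0.10, adjusted p 1.98e-06), whereas ZNF584 had 35.8, 35.5 and 31.1 CPM in shRNH1 and 32.4, 30.4 and 32.8 CPM in shControl. The annotations differ on this pair. RefSeq has the starts 186 bases apart, with promoter windows that share 285 bases, whereas GENCODE 29 has ZNF584-DT inside the ZNF584 gene on the opposite strand (distance between the 5′ ends -6980 bases, negative where the transcripts overlap). In GENCODE 29 it shares no exon base with ZNF584, but with strand use not stated, intronic RNA of ZNF584 could not be told apart from it. ZKSCAN2-DT, beside another zinc finger gene, had 3.92, 3.58 and 3.21 CPM in shRNH1, against 2.08, 2.32 and 2.41 CPM in shControl (log2 fold change 0.65 ± 0.19, adjusted p 0.0117). That call was lost without shRNH1 replicate 1 (0.58) or shControl replicate 1 (0.59). The offset for expression level (0.50) lost it too, as did those for neighbouring genes described further on.

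Other rises had larger adjusted p-values. FAM111A-DT had 3.24, 3.02 and 3.15 CPM in shRNH1, against 1.62, 1.64 and 1.74 CPM in shControl. It rose 1.88-fold (log2 fold change 0.91 ± 0.21, adjusted p 0.00138) and its partner, which encodes a protease that protects replication forks, rose as well (0.39 ± 0.12, adjusted p 0.0165). JARID2-DT had 2.00, 1.34 and 1.64 CPM in shRNH1, against 1.00, 0.749 and 0.895 CPM in shControl. It rose 1.88-fold (0.91 ± 0.29, adjusted p 0.0184), but not past the threshold without shRNH1 replicate 1 (0.75) or without shControl replicate 2 (0.79). JARID2 encodes a cofactor of Polycomb repressive complex 2 and did not pass the threshold (-0.12 ± 0.09, adjusted p 0.391). PAXIP1-DT, beside a gene for a BRCT-domain protein of the DNA damage response, had 11.3, 13.0 and 11.1 CPM in shRNH1, against 7.67, 8.70 and 8.57 CPM in shControl (0.50 ± 0.12, adjusted p 0.00293).

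The transcripts that fell were SUV39H2-DT and CTTN-DT. SUV39H2-DT had 0.677, 0.967 and 1.18 CPM in shRNH1, against 2.08, 1.52 and 1.95 CPM in shControl. All shRNH1 libraries lay below all shControl libraries, and the level fell to 51.0% of shControl (log2 fold change -0.97 ± 0.28, adjusted p 0.0105). SUV39H2, which encodes an H3K9 methyltransferase, had 7.66, 6.94 and 7.69 CPM in shRNH1 and 8.54, 9.01 and 7.24 CPM in shControl, with overlapping groups (-0.16 ± 0.13, adjusted p 0.433). CTTN-DT had 2.98, 3.16 and 2.27 CPM in shRNH1, against 4.21, 4.28 and 4.23 CPM in shControl (-0.60 ± 0.18, adjusted p 0.0152). Its partner CTTN, which encodes the actin-binding protein cortactin, fell too (-0.28 ± 0.09, adjusted p 0.0253). The exons of CTTN-DT share 20.6% of their bases with other genes, and 85 bases with CTTN. The call on SUV39H2-DT was lost without shRNH1 replicate 1 (-0.78) or shControl replicate 1 (-0.88). The call on CTTN-DT was lost without shRNH1 replicate 3 (-0.47) or with library size as the only scaling (-0.48).

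Some rises rested on few counts, where only a large fold can pass the test. RNF32-DT had 65, 35 and 65 counts in shRNH1, against 30, 22 and 20 counts in shControl, which is 1.91, 0.996 and 1.97 CPM against 0.770, 0.532 and 0.542 CPM. The groups did not overlap, and the transcript rose 2.63-fold (1.40 ± 0.33, adjusted p 0.00205) beside the RING finger gene RNF32, whose level did not pass the threshold (0.01 ± 0.22, adjusted p 0.975). KIF26A-DT had 43, 53 and 47 counts in shRNH1 and 13, 11 and 46 counts in shControl. Its shControl replicate 3 stood apart at 1.25 CPM, against 0.334 and 0.266 CPM in the other shControl libraries and 1.27 to 1.51 CPM in shRNH1. It rose 2.30-fold (1.20 ± 0.41, adjusted p 0.0276) beside a kinesin-like gene. The call was lost without shRNH1 replicate 1 (1.27), shRNH1 replicate 2 (1.15), shControl replicate 1 (0.90) or shControl replicate 2 (0.82), and by DESeq2 (1.17, adjusted p 0.0669). Without shControl replicate 3, the library that stood apart, the log2 fold change was 2.22. Both transcripts reached a mean of 1 CPM over the 6 libraries mainly through shRNH1.

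**Figure D3:**
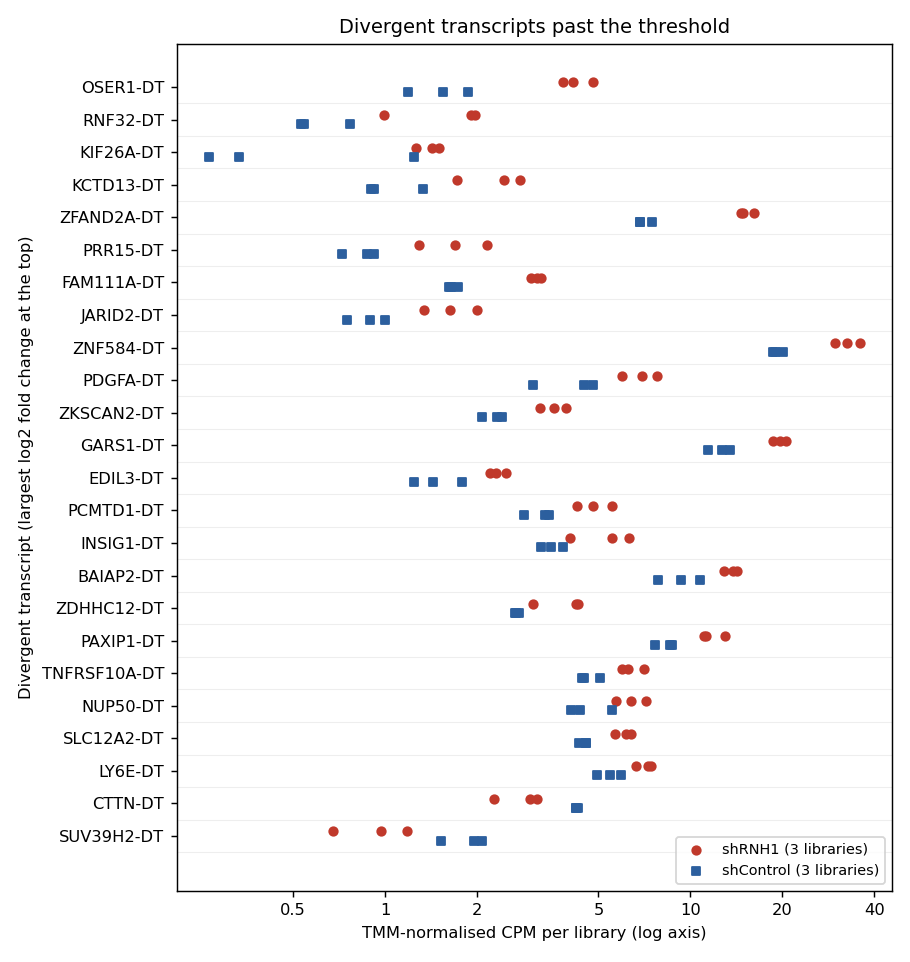
TMM-normalised CPM (log axis) of each library for the 24 divergent transcripts past the threshold, ordered by log2 fold change from the largest at the top; red circles are shRNH1 and blue squares shControl. The libraries of the groups are apart in every row, narrowly for KIF26A-DT (lowest shRNH1 library 1.27, highest shControl library 1.25 CPM), and only SUV39H2-DT and CTTN-DT have the shRNH1 libraries on the left.

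Of the 8 most abundant divergent transcripts, 3 rose (ZNF584-DT, GARS1-DT and BAIAP2-DT) and the other 5 did not pass the threshold. CTBP1-DT, beside the gene for the corepressor CtBP1, had the highest level. It had 32.0, 36.6 and 29.9 CPM in shRNH1 and 24.8, 26.1 and 31.5 CPM in shControl (0.26 ± 0.11, adjusted p 0.0784), with overlapping groups. CTBP1-DT passed the threshold without shRNH1 replicate 3 (0.32) or shControl replicate 3 (0.37), or with library size as the only scaling (0.37). MCPH1-DT, beside the microcephalin gene, had 17.4, 21.9 and 19.3 CPM in shRNH1 and 14.5, 17.4 and 19.8 CPM in shControl (0.18 ± 0.12, adjusted p 0.276). GARS1-DT, named after the gene of glycyl-tRNA synthetase, had 18.7, 19.7 and 20.6 CPM in shRNH1, against 12.7, 13.5 and 11.4 CPM in shControl, and rose 1.56-fold (0.64 ± 0.11, adjusted p 5.876e-05). In RefSeq the start of GARS1-DT lies 16956 bases from that of GARS1, and their promoter windows share no bases. IRX2-DT, beside an Iroquois homeobox gene, had 11.6, 16.5 and 12.02 CPM in shRNH1 and 16.6, 13.8 and 21.2 CPM in shControl (-0.36 ± 0.14, adjusted p 0.0589). The groups overlapped, and the lower level passed the threshold without shRNH1 replicate 2 (-0.54) or shControl replicate 2 (-0.51). It also passed with DESeq2 size factors (-0.39), no filter (-0.37), the replicate block (-0.36), the expression level offset (-0.42) and the GC and length offset (-0.41). ZC3H12A-DT, beside the gene of the mRNA-degrading endonuclease Regnase-1, had 13.7, 12.5 and 12.7 CPM in shRNH1 and 10.8, 10.0 and 13.9 CPM in shControl (0.17 ± 0.13, adjusted p 0.349). ZNF496-DT had 14.5, 15.0 and 12.6 CPM in shRNH1 and 11.2, 15.3 and 13.5 CPM in shControl (0.07 ± 0.12, adjusted p 0.721), and its sign turned without shControl replicate 1 (-0.04).

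Each transcript was then set against its own partner gene, which asks whether the level of the divergent RNA changed relative to the gene it is named after. Of the 136 tested partners, 16 rose (11.8%) and 36 fell (26.5%), against 15.3% and 12.3% of all tested genes, and their median log2 fold change was -0.05. Falls were also more frequent at the partners' level than over all tested genes, mainly in the highest band. In the highest of the 5 bands of level (53.1 CPM and above), which held 62 partners, 4 partners rose and 19 fell, against 12.3% and 27.7% of all genes of the band. In the fourth band (14.6 to 53.6 CPM), which held 46, 7 rose and 16 fell, against 19.1% and 16.8%. The share of partners that fell was near that of all genes in the highest band and well above it in the fourth. RNASEH1, the knockdown target, is 1 of the 36 that fell. EFCAB6, the partner of EFCAB6-DT, was not tested because of its low counts. For each library the log2 ratio of transcript over partner was taken from CPM plus 0.5, and the ratios of shRNH1 and shControl were compared with limma across 2415 pairs, which also held other head-to-head gene pairs with 5′ ends within 2 kb. The ratio changed for 25 of the 136 divergent transcripts (18.4%), against 19.9% of all pairs. It was higher in shRNH1 for 24 of them (17.6%, RNASEH1-DT included), against 11.8% of all pairs, and lower for 1, PCCA-DT, against 8.16%. Where both genes of a pair were coding, or both noncoding, the order followed their symbols, so the sign of the difference is arbitrary. All pairs include such pairs and the divergent pairs, so 11.8% and 8.16% are no background for direction. For changes of either sign the share was 26.0% among pairs of coding genes and 14.3% among pairs of a coding gene with another noncoding gene. The median difference was 0.25 over the 136 divergent pairs and 0.08 over the other noncoding pairs. It was 0.02 over the coding pairs, where the sign is arbitrary. Most divergent transcripts lay in lower bands of level than most partners. The bands from 0.642 to 15.1 CPM held 70 and 62 divergent transcripts, and all their genes had medians of 0.07 and 0.11. The bands from 14.6 CPM upwards held 46 and 62 partners, with medians of 0.0005 and -0.10 over all genes. The part of this trend with level in the ratios was not tested. The number of divergent pairs past the threshold was 16 without shRNH1 replicate 1, 13 without shControl replicate 1 and 16 of 97 when pairs with overlapping exons were left out.

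In 4 pairs the transcript rose and the partner fell. Joint calls on both genes were not counted among the other head-to-head pairs, so this count and those that follow have no background share. BAIAP2-DT had 14.2, 12.9 and 13.8 CPM in shRNH1, against 9.29, 7.83 and 10.8 CPM in shControl (log2 fold change 0.55 ± 0.13, adjusted p 0.00151). BAIAP2, which encodes the membrane-bending actin scaffold IRSp53, had 82.7, 85.6 and 76.0 CPM in shRNH1, against 117.9, 109.2 and 130.3 CPM in shControl (-0.55 ± 0.09, adjusted p 6.781e-05). Neither gene's groups overlapped. Their ratio was higher in shRNH1 by 1.08 ± 0.13 (adjusted p 8.057e-05), and the 5′ ends lie 241 bases apart in GENCODE 29 (432 in RefSeq) with no exon base shared. SLC12A2-DT had 6.39, 6.14 and 5.66 CPM in shRNH1, against 4.54, 4.54 and 4.31 CPM in shControl (0.44 ± 0.15, adjusted p 0.0268). SLC12A2, the Na-K-Cl cotransporter gene, had 20.8, 23.4 and 22.7 CPM in shRNH1, against 31.1, 25.9 and 31.3 CPM in shControl (-0.40 ± 0.10, adjusted p 0.00491). The call on SLC12A2-DT was lost without shRNH1 replicate 1 (0.40) or without shControl replicate 1, 2 or 3 (0.45, 0.44 and 0.42). It was also lost by DESeq2 (0.42), the expression level offset (0.30) and the GC and length offset (0.34). The offset for neighbouring genes described further on lost it too, alone (0.32) or with that for expression level (0.19). The call on the ratio of SLC12A2-DT to its partner (0.79 ± 0.16, adjusted p 0.0033) was kept in every alternative run for pairs, which held no such offset.

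NUP50-DT had 5.71, 6.40 and 7.14 CPM in shRNH1, against 4.05, 5.56 and 4.36 CPM in shControl (0.46 ± 0.16, adjusted p 0.0304). NUP50, a nuclear pore gene, had 90.6, 97.7 and 99.7 CPM in shRNH1, against 123.6, 123.4 and 112.7 CPM in shControl (-0.32 ± 0.09, adjusted p 0.00835). The call on NUP50-DT was lost without shRNH1 replicate 2 (0.47) or 3 (0.38) and without shControl replicate 1 (0.37) or 3 (0.42), and the ratio differed by 0.75 ± 0.16 (adjusted p 0.00423). TNFRSF10A-DT had 7.07, 5.97 and 6.27 CPM in shRNH1, against 4.41, 5.05 and 4.50 CPM in shControl (0.47 ± 0.15, adjusted p 0.0197). TNFRSF10A, the gene of a TRAIL death receptor, had 45.2, 43.9 and 42.4 CPM in shRNH1, against 55.2, 59.7 and 63.8 CPM in shControl (-0.44 ± 0.09, adjusted p 0.000659). The exons of TNFRSF10A-DT share 56.9% of their bases with other genes, the largest share among the transcripts, so its reads could not be separated from theirs. Its call was lost without shRNH1 replicate 1 (0.39) or shControl replicate 1 (0.43), and with the expression level offset (0.32).

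In 31 pairs the partner fell and the transcript did not pass the threshold. TRMT61A, the catalytic subunit of a tRNA methyltransferase, fell to 72.5, 75.1 and 70.2 CPM in shRNH1, against 116.0, 115.9 and 130.3 CPM in shControl (-0.73 ± 0.09, adjusted p 6.752e-07). TRMT61A-DT had 8.63, 10.3 and 7.30 CPM in shRNH1 and 7.31, 7.42 and 6.75 CPM in shControl, with overlapping groups (0.29 ± 0.14, adjusted p 0.131, past the threshold at 0.40 without shRNH1 replicate 3). The ratio of the pair was higher in shRNH1 by 0.99 ± 0.15 (adjusted p 0.0005). IRX2 fell by 0.89 ± 0.15 on the log2 scale (adjusted p 4.18e-05), more than IRX2-DT, and that ratio differed by 0.52 ± 0.12 (adjusted p 0.0087). PDGFA-DT rose beside a growth factor gene that did not pass the threshold. PDGFA-DT had 6.95, 7.76 and 5.96 CPM in shRNH1, against 3.05, 4.79 and 4.50 CPM in shControl (0.74 ± 0.17, adjusted p 0.00143), and PDGFA had 57.2, 57.2 and 50.6 CPM in shRNH1 and 55.8, 56.8 and 64.3 CPM in shControl (-0.10 ± 0.09, adjusted p 0.482). The call on PDGFA-DT was lost with the offsets for neighbouring genes and expression level together (0.41). The ratio of the pair differed by 0.79 ± 0.17 (adjusted p 0.00434). The same held for ZFAND2A-DT (ratio 0.84 ± 0.14, adjusted p 0.00083), OSER1-DT (1.09 ± 0.21, adjusted p 0.00245) and ZNF584-DT (0.65 ± 0.11, adjusted p 0.00109).

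PCCA-DT was the pair with a lower ratio in shRNH1. It had 6.95, 5.80 and 6.03 CPM in shRNH1 and 7.62, 7.93 and 6.61 CPM in shControl, beside PCCA, a subunit of propionyl-CoA carboxylase, with 7.86, 6.34 and 8.72 CPM in shRNH1 and 5.82, 5.61 and 6.64 CPM in shControl. Neither gene passed the threshold alone, and the ratio differed by -0.53 ± 0.17 (adjusted p 0.0376). That call was lost without shRNH1 replicate 1 (-0.58) or 3 (-0.42) and without shControl replicate 1 (-0.49) or 2 (-0.44). It was also lost with 0.1 in place of 0.5 added to the CPM (-0.57). The alternative runs for pairs held no offset for expression level or for neighbouring genes. Of the 25 pairs past the threshold, 11 kept the call in every alternative run for them. These were the pair of RNASEH1-DT, which the knockdown itself sets apart, and those of OSER1-DT, ZFAND2A-DT, ZNF584-DT, PDGFA-DT, BAIAP2-DT, TRMT61A-DT, IRX2-DT, NUP50-DT, SLC12A2-DT and TNFRSF10A-DT.

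**Figure D4:**
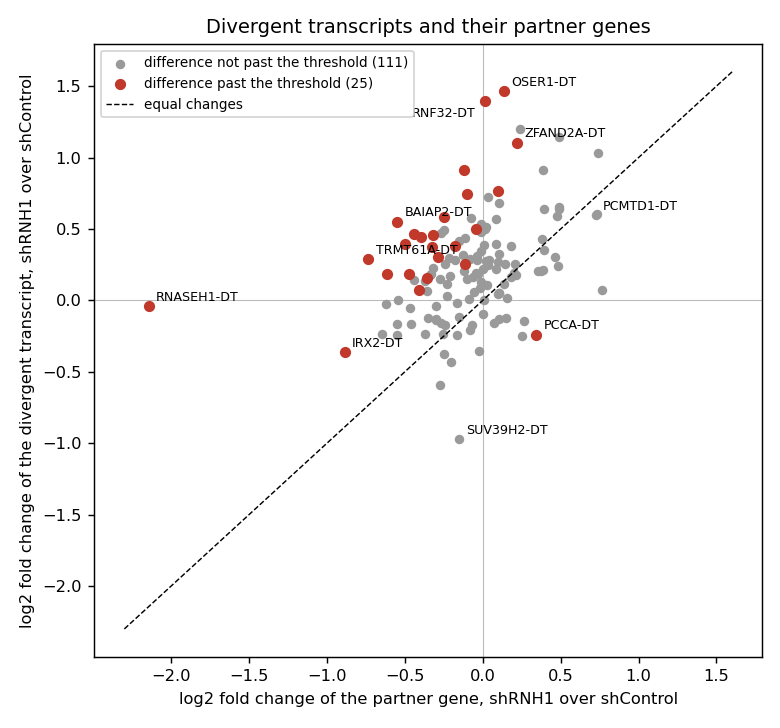
Log2 fold change (shRNH1 over shControl) of each of 136 divergent transcripts (y axis) against that of its partner gene (x axis); red points are the 25 pairs whose transcript-over-partner ratio changed at an adjusted p under 0.05, and the dashed line marks equal changes. All red points except PCCA-DT lie above the line, and RNASEH1-DT lies farthest left, at -2.14 for the partner and -0.04 for the transcript.

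In 8 pairs both genes rose, and in 1, CTTN, both fell, again without a background share from other pairs. PCMTD1-DT had 4.80, 4.24 and 5.54 CPM in shRNH1, against 3.34, 3.43 and 2.85 CPM in shControl (0.60 ± 0.17, adjusted p 0.0104, not past the threshold at 0.49 without shRNH1 replicate 3). PCMTD1 rose beside it, with 7.19, 8.50 and 7.75 CPM in shRNH1, against 4.49, 4.95 and 4.72 CPM in shControl (0.73 ± 0.14, adjusted p 0.000308). INSIG1-DT had 6.30, 5.55 and 4.03 CPM in shRNH1, against 3.23, 3.504 and 3.82 CPM in shControl (0.59 ± 0.18, adjusted p 0.0133). INSIG1, which holds the sterol-sensing SREBP complex in the endoplasmic reticulum, had 115.0, 122.7 and 125.9 CPM in shRNH1, against 82.8, 81.6 and 97.1 CPM in shControl (0.48 ± 0.09, adjusted p 0.000348). The call on INSIG1-DT was lost without shRNH1 replicate 1 (0.45) or shControl replicate 1 (0.53). The other pairs in which both rose were those of GARS1-DT, FAM111A-DT, KCTD13-DT, PRR15-DT, ZKSCAN2-DT and EDIL3-DT. Across the 136 pairs the changes of transcript and partner, measured in the same libraries, had the same sign in 75 (55.1%), with Pearson's r 0.36 and Spearman's rho 0.36, as a description. Over 1220 pairs of coding genes the sign was the same in 57.3%, with r 0.22 and rho 0.22. Over 828 pairs with another noncoding gene it was the same in 59.8%, with r 0.36 and rho 0.31.

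Divergent transcripts were mostly well below their partners in level. Per length of transcript, the median of the 134 annotated transcripts was 16.4% of the partner's level in shRNH1 and 12.9% in shControl. The share ran from 0.582% for LY6E-DT in shRNH1 (0.505% in shControl), to 3301% for EFCAB6-DT in shRNH1 (1881% in shControl), whose partner was too low to be tested, and 19 transcripts in shRNH1 and 18 in shControl stood above their partner. MCPH1-DT stood at 348.6% of MCPH1 in shRNH1 and 221.1% in shControl. BAIAP2-DT stood at 13.8% of BAIAP2 in shRNH1 and 6.45% in shControl.

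Several rises fell in stretches of the genome where most neighbouring genes were also higher in shRNH1. Of the 9 divergent transcripts on chromosome 7, 7 rose (GARS1-DT, INSIG1-DT, PAXIP1-DT, PDGFA-DT, PRR15-DT, RNF32-DT and ZFAND2A-DT), with a median log2 fold change of 0.68 over the 9. Of the 894 tested genes of chromosome 7, 24.3% rose and 9.96% fell, with a median of 0.12. On chromosome 16, 2 of 8 divergent transcripts rose, and 28.5% of 1002 tested genes rose with a median of 0.21. On chromosome 8, 3 of 7 divergent transcripts rose, while 11.2% of 644 tested genes rose, 17.7% fell and the median was -0.09. On chromosome 4, 0 of 5 divergent transcripts were called by edgeR, while 20.5% of 620 tested genes rose. Within 5 Mb on either side, the median log2 fold change of the tested genes was 0.48 around GARS1-DT, 0.45 around PRR15-DT, KCTD13-DT and ZKSCAN2-DT, and 0.21 around ZFAND2A-DT and PDGFA-DT. It was 0.03 around OSER1-DT, 0.08 around ZNF584-DT, -0.10 around BAIAP2-DT and -0.05 around FAM111A-DT.

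PRR15-DT and KCTD13-DT show the pattern. PRR15-DT had 1.30, 2.16 and 1.70 CPM in shRNH1, against 0.872, 0.725 and 0.922 CPM in shControl (1.03 ± 0.29, adjusted p 0.00844, not past the threshold at 0.84 without shRNH1 replicate 2), and its partner rose by 0.74 ± 0.10 (adjusted p 3.343e-06). KCTD13-DT had 2.77, 2.45 and 1.73 CPM in shRNH1, against 0.898, 0.918 and 1.33 CPM in shControl (1.15 ± 0.27, adjusted p 0.00186). KCTD13, a substrate adaptor of the CUL3 ubiquitin ligase, rose by 0.49 ± 0.10 (adjusted p 0.000508). Neither pair's ratio passed the threshold (-0.02 ± 0.20 for PRR15-DT and 0.37 ± 0.21 for KCTD13-DT).

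With each gene's fold change taken relative to the tested genes within 5 Mb, 21 divergent transcripts were called higher and 5 lower, against 13.8% and 12.2% of all genes, and 17 of the 22 kept their call. The calls lost were those of GARS1-DT (0.17), PRR15-DT (0.58), KCTD13-DT (0.70), ZKSCAN2-DT (0.21) and SLC12A2-DT (0.32). The sign of RNASEH1-DT turned to 0.02. Among the 120 transcripts whose neighbourhood median was under 0.2, 16 rose, 2 fell and the median was 0.19, while among all tested genes in such neighbourhoods 13.8% rose, 13.6% fell and the median was -0.01. The part of these regional shifts in the rises was not tested beyond these values. With this step and the offset for expression level together, 11 transcripts were called higher, 10 of them among the 22, and 5 lower, with a median of 0.10.

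**Figure D5:**
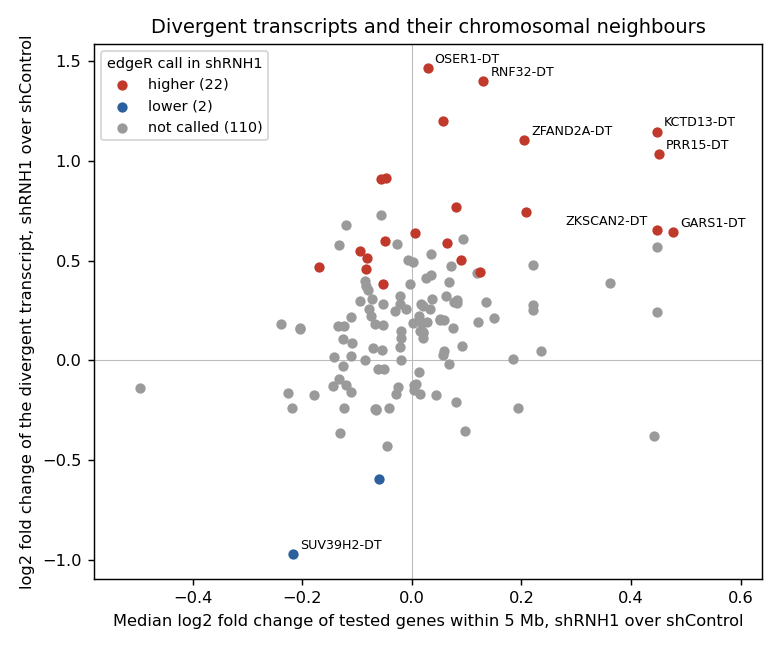
Log2 fold change of 134 divergent transcripts (y axis) against the median log2 fold change of the tested genes within 5 Mb (x axis), both shRNH1 over shControl; red points rose, blue points fell and grey points did not pass the threshold. GARS1-DT, PRR15-DT, KCTD13-DT and ZKSCAN2-DT lie at a neighbourhood median of 0.45 or more, whereas OSER1-DT and RNF32-DT are among the highest points with neighbourhood medians of 0.03 and 0.13.

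Divergent transcripts are kept low by factors that end or degrade promoter-upstream RNA, and 63 such genes were tested as a list. None rose and 16 fell (25.4% of the list, against 12.3% of all tested genes), with a median log2 fold change of -0.13. Falls were more frequent among all genes at higher levels, 16.8% in the fourth of the 5 bands of level and 27.7% in the highest. Many genes of the list lie in these bands, and the list was not compared at matched level. By edgeR 3 genes of the list had an unadjusted p under 0.05 with a higher level and 24 with a lower one. Neither DESeq2 nor limma-voom called any gene of the list higher. With library size as the only scaling, 4 were called higher and 8 lower, so the count depends on the scaling. Of the 12 genes of the cleavage and polyadenylation machinery, which makes the 3′ ends of RNA, 6 fell. CSTF2 had 45.1 ± 2.46 CPM in shRNH1 and 66.3 ± 3.87 CPM in shControl (SD, n = 3 each; -0.56 ± 0.09, adjusted p 4.6e-05 by edgeR). CPSF1, the large subunit of the complex, had 356.1 ± 16.9 CPM in shRNH1 and 497.1 ± 50.7 CPM in shControl (-0.48 ± 0.10, adjusted p 0.000475 by edgeR).

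Of the 6 genes of the NEXT and PAXT complexes, which hand RNA to the exosome, 2 fell. ZC3H3 had 111.8 ± 12.8 CPM in shRNH1 and 164.0 ± 18.4 CPM in shControl (-0.55 ± 0.10, adjusted p 0.000162 by edgeR). PABPN1, the nuclear poly(A)-binding protein, had 19.1 ± 3.30 CPM in shRNH1 and 29.7 ± 3.62 CPM in shControl (-0.63 ± 0.12, adjusted p 0.000192 by edgeR). Of the 14 exosome genes 3 fell, of the 15 Integrator genes 2, of the 5 cap-binding genes 2, of the 3 U1 snRNP proteins 1, and of the Restrictor genes ZC3H4 and WDR82 none. Whether these changes bear on the level of the divergent transcripts was not tested.

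The identity of the cells was checked on marker genes. All 7 squamous markers reached 1 CPM in at least 1 library, with sums of 806.3 to 848.2 CPM in shRNH1 and 666.9 to 859.2 CPM in shControl, most of it KRT17. By edgeR, KRT5 (12.1 to 12.6 CPM in shRNH1, 28.9 to 33.9 CPM in shControl) and KRT14 (5.03 to 5.39 CPM in shRNH1, 12.3 to 15.7 CPM in shControl) fell. PERP (262.4 to 278.6 CPM in shRNH1, 172.9 to 192.6 CPM in shControl) and SOX2 (4.09 to 5.83 CPM in shRNH1, 0.641 to 0.949 CPM in shControl) rose. Of the 6 fibroblast markers 2 reached 1 CPM, mainly COL1A1, with sums of 110.5 to 133.3 CPM in shRNH1 and 62.5 to 71.8 CPM in shControl, while COL1A2 and DCN were listed at 0 in all libraries; COL1A1 rose and PDGFRB fell. None of the 5 leukocyte markers reached 1 CPM (sums of 1.09 to 1.76 CPM in shRNH1 and 0.508 to 0.667 CPM in shControl), and all 4 endothelial markers reached it, with CDH5 the highest and PECAM1 higher in shRNH1 past the threshold. The endothelial markers summed to 21.1 to 22.4 CPM in shRNH1 and 21.7 to 24.1 CPM in shControl.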

How the data were processed

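The authors deposited raw counts for 62700 Ensembl gene IDs in 6 poly(A) RNA libraries. HISAT2, StringTie and DESeq2 with the GRCh38 build are named per the submitters' processing notes; the sources used here do not give the annotation, the counting tool or whether it used strand. From the deposited counts, edgeR 4.0.16 in R 4.3.3 was run with TMM normalisation, filterByExpr by group and glmQLFTest, with Benjamini-Hochberg adjustment over 19682 genes at 0.05. SEs were derived from the F statistic. CPM in the text are TMM-normalised; the level rule used plain CPM of at least 1.

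Transcript-over-partner ratios (log2 of CPM plus 0.5) were tested with limma 3.58.1 (trended eBayes) over 2415 pairs. DESeq2 1.42.0, limma-voom, other filters, offsets and left-out replicates were alternatives. Positions and exons came from GENCODE 29 (134 of 137 transcripts), promoters from RefSeq GRCh38.p14. The genes and lists were chosen with earlier results of these data known. Named genes were RNASEH1-DT, the 8 most abundant members, the 12 largest rises and 8 largest falls with groups apart, up to 8 pairs per direction by pair p, up to 8 with opposite or same calls, 3 on either side of the level rule and 4 surveillance factors per direction by p; PAXIP1-DT, EDIL3-DT and LY6E-DT were added after their values were seen. The procedure was tested on simulated data. Same-numbered replicates of the groups did not deviate together (r = 0.045, 0.056 and -0.049), so the numbers were not used for pairing. Library totals (31394687 to 41103220 counts) limit the precision of transcripts near 1 CPM.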

Additional observations from a re-analysis of the deposited data

How the results depend on the processing

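The count of divergent transcripts called higher (22) lay between 16 and 33 under the other normalisations, tests, filters, the replicate block, the GC and length offset, the neighbourhood offset and membership cuts of 0.5 and 2 CPM. It was 13 with the expression level offset, 11 with the neighbourhood and expression level offsets together, 12 among the 78 transcripts that share no exon base, and 13 to 21 with each replicate left out in turn. The count called lower (2) was 1 with library size alone, with a membership cut of 2 CPM and without shared exons, 4 with the expression level offset, 5 with either neighbourhood offset, and 1 to 5 with a replicate left out. The median (0.20) was 0.32 with library size alone, 0.10 with the expression level offset, 0.10 with both offsets, and 0.16 to 0.25 with a replicate left out. The count of pairs past the threshold (25) was 41 with a pseudocount of 2 CPM, 16 of 97 without exon overlap and 13 to 21 with a replicate left out. With the replicate block, 22 transcripts were called higher, 3 lower and 24 pairs differed. The neighbourhood offsets and the restriction to unshared exons were chosen after seeing the data. Of 627 values of named genes under alternatives, 552 kept direction and call, 49 lost the call, 15 gained one and 11 turned sign. Those that turned were RNASEH1-DT (0.065 with library size alone, 0.021 with the neighbourhood offset, -0.17 to 0.073 with a replicate left out) and, with a replicate left out, DUSP5-DT (-0.057 to 0.58), TMEM14B-DT (-0.024 to 0.16), RPAP3-DT (-0.25 to 0.049) and ZNF496-DT (-0.040 to 0.17). The cause of these moves was not tested beyond the fewer samples or genes used. Rises kept in all 17 alternatives were the 6 of ZFAND2A-DT, OSER1-DT, ZNF584-DT, FAM111A-DT, BAIAP2-DT and RNF32-DT.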

Other observations

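Divergent transcripts were built like other noncoding genes rather than like coding ones in GENCODE 29. Of the 134 annotated, 40 (29.9%) had a single exon, against 28.4% of other noncoding and 3.49% of coding tested genes, and the median transcript length was 1484 bases, against 1802 and 3716 bases. A poly(A) signal was found near the 3′ end of 56.0% of them, against 49.3% and 74.8%. Of the 94 spliced transcripts 16 rose (median log2 fold change over the 94, 0.25), and of the 40 single-exon transcripts 6 rose (median 0.17); the difference was not tested. The 5′ ends of transcript and partner lay within 1 kb of each other in 121 of 134 pairs, and in 42 pairs the transcripts overlapped at their 5′ ends.

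The GC skew of the first 500 bases of the longest annotated transcript had a median of 0.02 over the divergent transcripts. It was positive in 59.0%, against 49.5% of other noncoding and 63.1% of coding genes. GC skew of genomic DNA is a sequence feature associated with R-loops, but here exons were joined and introns left out. Across 134 transcripts the skew and the log2 fold change had Spearman's rho -0.01, as a description. Of the 453 divergent transcripts below the level rule, 150 were tested. Among these 150, 8 rose, 2 fell and the median log2 fold change was 0.29. In the lowest band of level (mean CPM 0.164 to 0.715), 6.76% of all genes rose and 2.18% fell, with a median of 0.08. In the next band (0.642 to 2.89 CPM), 14.3% rose and 5.11% fell, with a median of 0.07. Neither the 8 rises nor the 2 falls were an excess over these shares.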
